A study of Mus musculus with 6 samples.

Results

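In B16 cells, a mouse melanoma line, 2386 of 6512 p300 peaks on chromosomes 1 to 19, X and Y lay at the end of a protein-coding gene and overlapped a peak of H3K4me3 (36.6%, exact 95% interval 35.5 to 37.8). They were selected on 2 measured properties, at least 1 bp of overlap with an H3K4me3 peak and at most 1 kb to an annotated end, upstream or downstream, of a RefSeq gene on mm10. The other p300 peaks were 1824 with H3K4me3 inside genes, 1358 with H3K4me3 between genes, 59 at gene ends without H3K4me3 and 885 elsewhere without H3K4me3. Chromatin was profiled by CUT&Tag, in which an antibody steers a transposase to its target so that nearby DNA is cut and tagged in place. Both libraries came from cells titled WT, with no treatment given, and each antibody had 1 library, so no difference below has a replicate check and none was tested across samples. Another 4 libraries of the series, for H3K9me3 in cells titled WT, TdgKO, Trp53KO and TdgTrp53DKO, were not analysed here. The members were chosen with the same 2 peak lists that give their values, so their number, their overlap with H3K4me3 and their nearness to a gene are descriptions. Intervals are exact 95% intervals and cover counting error only, since PCR copies are not separate molecules.

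The protein p300, encoded by Ep300, is an acetyltransferase that transcription factors bring to enhancers and promoters, where it acetylates histones and other proteins. H3K4me3 is laid down by SET1 and MLL complexes on the nucleosomes beside the starts of transcribed genes, most often at CpG islands. A promoter that carries both has the methyl mark of an active start and a coactivator that responds to the factors bound there. The nucleosome-depleted stretch at the start itself separates an upstream from a downstream nucleosome.

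The promoters of 10 genes are shown first, because the results turn on where p300 lay relative to such sequences and on the short motifs in them. Each line gives 250 bases upstream of an annotated start, 5′ to 3′ on the strand of the gene, from RefSeq on GRCm38.p6. Capitals mark any of 14 motifs searched on both strands. Core promoter and housekeeping motifs were the TATA box with the letters TATAAA, the CCAAT box, the SP/KLF motif with GGGCGG, the ETS motif with CCGGAAG, and the palindromes or long motifs of NRF1, YY1 and BANP. Motifs of regulated factors were TGACGTCA for the cyclic AMP response element (CRE), TGANTCA for AP-1, CACGTG for the E-box, TCATGTG for the M-box of pigment genes, GGAATG for TEAD, ACAAAG for SOX and the full site of p53. Neighbouring motifs can overlap, as the SP/KLF and CCAAT letters do in the Cry1 line. A match of letters is a description and not a bound site.
Mcee (chr7:64392372-64392621, + strand): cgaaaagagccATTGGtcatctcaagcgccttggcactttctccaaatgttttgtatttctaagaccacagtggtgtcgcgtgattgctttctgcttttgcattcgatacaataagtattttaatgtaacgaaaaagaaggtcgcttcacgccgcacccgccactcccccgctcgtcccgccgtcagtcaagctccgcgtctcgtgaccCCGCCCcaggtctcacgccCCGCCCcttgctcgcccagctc
Hsp90b1 (chr10:86705445-86705694, - strand): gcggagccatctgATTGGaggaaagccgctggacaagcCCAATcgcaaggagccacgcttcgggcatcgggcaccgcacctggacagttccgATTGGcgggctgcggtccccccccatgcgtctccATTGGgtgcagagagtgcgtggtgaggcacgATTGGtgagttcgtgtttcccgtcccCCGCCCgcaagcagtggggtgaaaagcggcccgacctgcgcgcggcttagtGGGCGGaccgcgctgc
Srxn1 (chr2:152105274-152105523, + strand): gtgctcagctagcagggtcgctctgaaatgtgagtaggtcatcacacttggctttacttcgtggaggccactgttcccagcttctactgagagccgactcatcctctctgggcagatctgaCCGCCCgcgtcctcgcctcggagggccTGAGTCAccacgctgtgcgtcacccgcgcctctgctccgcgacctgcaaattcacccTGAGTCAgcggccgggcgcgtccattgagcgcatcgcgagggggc
Cry1 (chr10:85185055-85185304, - strand): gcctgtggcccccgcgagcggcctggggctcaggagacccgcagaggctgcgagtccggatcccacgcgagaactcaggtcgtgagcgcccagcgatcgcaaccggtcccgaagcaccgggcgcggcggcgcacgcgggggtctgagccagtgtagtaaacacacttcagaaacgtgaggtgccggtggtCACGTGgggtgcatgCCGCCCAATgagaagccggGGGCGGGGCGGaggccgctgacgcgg
Plk2 (chr13:110394794-110395043, + strand): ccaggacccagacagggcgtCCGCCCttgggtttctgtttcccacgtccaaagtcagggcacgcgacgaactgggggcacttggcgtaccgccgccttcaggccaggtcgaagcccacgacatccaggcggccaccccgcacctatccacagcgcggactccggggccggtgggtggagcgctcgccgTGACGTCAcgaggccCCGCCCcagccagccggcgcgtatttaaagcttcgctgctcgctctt
Snrnp70 (chr7:45395743-45395992, - strand): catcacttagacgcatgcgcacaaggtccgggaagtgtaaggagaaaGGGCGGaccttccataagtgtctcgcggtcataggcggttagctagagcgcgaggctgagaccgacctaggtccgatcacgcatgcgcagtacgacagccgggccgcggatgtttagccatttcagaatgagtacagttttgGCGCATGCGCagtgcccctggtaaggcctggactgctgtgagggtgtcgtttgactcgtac
Nqo1 (chr8:107403206-107403455, - strand): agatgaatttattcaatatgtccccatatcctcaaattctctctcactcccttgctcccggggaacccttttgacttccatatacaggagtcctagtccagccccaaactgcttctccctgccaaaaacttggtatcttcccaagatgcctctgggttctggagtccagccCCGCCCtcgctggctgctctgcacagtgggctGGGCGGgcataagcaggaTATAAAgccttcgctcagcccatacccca
Cdk4 (chr10:127063285-127063534, + strand): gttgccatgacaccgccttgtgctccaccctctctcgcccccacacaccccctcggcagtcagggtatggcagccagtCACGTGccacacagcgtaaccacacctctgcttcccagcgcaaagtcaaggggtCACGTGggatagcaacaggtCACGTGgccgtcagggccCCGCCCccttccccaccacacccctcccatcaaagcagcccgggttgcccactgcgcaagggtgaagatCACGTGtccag
Gpnmb (chr6:49036268-49036517, + strand): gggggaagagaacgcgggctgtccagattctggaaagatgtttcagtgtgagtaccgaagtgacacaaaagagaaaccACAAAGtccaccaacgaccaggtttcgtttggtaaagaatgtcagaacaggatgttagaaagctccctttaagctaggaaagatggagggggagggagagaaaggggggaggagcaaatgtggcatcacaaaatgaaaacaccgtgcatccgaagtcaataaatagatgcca
Ctsd (chr7:142387828-142388077, - strand): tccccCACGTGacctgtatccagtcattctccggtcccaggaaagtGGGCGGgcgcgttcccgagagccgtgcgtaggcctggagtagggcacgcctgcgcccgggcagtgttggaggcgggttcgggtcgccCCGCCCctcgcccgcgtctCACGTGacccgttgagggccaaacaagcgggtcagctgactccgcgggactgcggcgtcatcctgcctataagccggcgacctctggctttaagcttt

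Mcee, which encodes an enzyme of propionate breakdown, starts back to back with Mphosph10, and its p300 summit lay at base 33 of the printed line with a fold enrichment of 11.7. In the line of Hsp90b1, the endoplasmic reticulum chaperone, the CCAAT box occurs 5 times, and the p300 peak (fold 10.0) had its summit 393 bp upstream of the start. Srxn1, which encodes sulfiredoxin and is a classical target of NRF2, holds 2 copies of TGAGTCA, and its summit lay 89 bp downstream of the start. Cry1, a repressor of the circadian clock, holds 1 E-box and had its summit at base 144. Plk2, a p53-responsive kinase, holds the CRE, and Snrnp70, a protein of the U1 splicing particle, holds the NRF1 palindrome with the p300 summit 36 bp upstream of the start. Nqo1, the quinone reductase used as a reporter of NRF2, is the one shown with a TATA box, and its window was poor in CpG (observed over expected 0.249). Cdk4, the kinase of the G1 cyclins, holds 4 E-boxes, and its summit lay at base 200 of the printed line. Gpnmb, a melanosome and lysosome glycoprotein, holds only the SOX letters, and Ctsd, the lysosomal protease cathepsin D, holds 2 E-boxes with the summit 7 bp downstream of the start. Cry1 and Ctsd come from lists added after their values were seen.

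The p300 summits formed a maximum upstream and another downstream of gene starts, with a dip just upstream of the start. For 1938 members within reach of a start of known strand, 32.7% of summits lay 500 to 101 bp upstream (30.6 to 34.8), 22.1% within 100 bp (20.3 to 24.0) and 32.2% 101 to 500 bp downstream (30.1 to 34.3). The middle class spans fewer bases than the others, so these shares are not densities. In bins of 100 bp the share went from 11.3% at 300 to 200 bp upstream to 7.84% and 8.26% in the next bins, then stood at 13.7%, 14.6% and 11.2% over the first 300 bp of the gene. The median summit was 2 bp downstream of the start (interval -20 to 20) and 222 bp from it in either direction. H3K4me3 summits of the peaks that overlapped p300 had no such dip, and their highest bin, with 17.5%, was the 100 bp just upstream of the start. Their median was 31.5 bp upstream, a signed position of -31.5 (interval -40 to -21), against 46 bp downstream (38 to 54) for H3K4me3 peaks at gene ends without p300. The median fold was 5.88 for the upstream group (5.76 to 5.99), 5.81 within 100 bp (5.63 to 6.01) and 5.87 downstream (5.77 to 6.02), so the height of the peaks differed by less than these intervals.

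**Figure D1:**
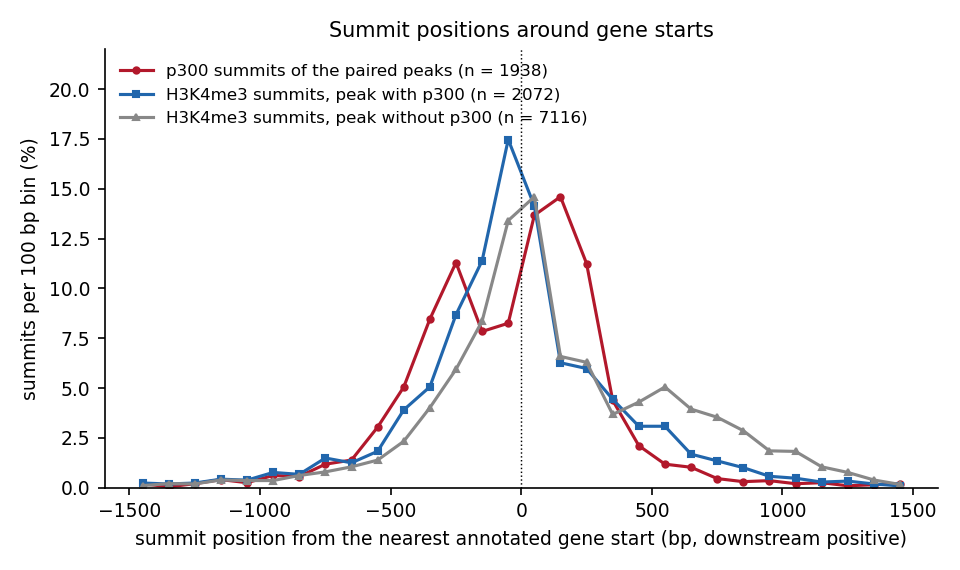
Share of summits (percent, y axis) in 100 bp bins by distance from the nearest annotated gene start (bp, x axis, downstream positive), for p300 peaks that overlap H3K4me3 at gene ends (red), H3K4me3 peaks with p300 (blue) and H3K4me3 peaks without p300 (grey). The red line has a peak of 11.3% upstream and another of 14.6% downstream with 7.84% and 8.26% between them, while the blue line peaks at 17.5% just upstream of the start.

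Most members belonged to starts and few to 3′ ends. Strand was known for a gene at 2055 members, and 1840 of these lay at a start and no 3′ end (89.5%, 88.1 to 90.8), 97 at a 3′ end alone (4.72%, 3.84 to 5.73) and 118 at both. The summit was nearest a start in 94.0% (92.9 to 95.001), and the same held for 94.5% of H3K4me3 peaks at gene ends without p300 (93.96 to 95.006). Members at 3′ ends alone had a median fold of 5.12 and an H3K4me3 partner with a median width of 902 bp, against 5.85 and 1330 bp at starts. Of those 97, 1 had the annotated start of any gene within 1 kb.

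Back-to-back gene pairs made up a larger share of the H3K4me3 peaks with p300 than of those without. Starts of 2 divergent genes lay within 1 kb of 221 of 2055 members (10.8%, 9.45 to 12.2), which share 1 peak between them. Among H3K4me3 peaks at gene ends the share was 10.2% with p300 (8.997 to 11.6) and 5.47% without (4.97 to 6.02). A wider peak reaches more starts within 1 kb, and the median width was 1308 bp with p300 and 895 bp without. The part of width in this contrast was not tested. Within divergent pairs 35.3% of summits lay within 100 bp of either start (29.0 to 42.0), against 20.4% where there was a single start (18.5 to 22.4). A pair has more bases within 100 bp of a start, so these shares do not show a different placement. The p300 peaks of such pairs had a median fold of 6.02 and H3K4me3 partners of 1478 bp. Mcee with Mphosph10 is one example, and Ddit3 with Mbd6, where Ddit3 encodes the stress factor CHOP, shared a p300 peak of 1981 bp.

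The p300 peaks mostly sat inside H3K4me3 peaks, with most summits more than 100 bp from the H3K4me3 summit. The p300 summit lay inside an H3K4me3 peak in 96.3% of members (95.5 to 97.0), although only 1 shared base was required, and 75.2% of members lay wholly inside (73.4 to 77.0). Where p300 met H3K4me3 inside genes, the summit share was 93.6% (92.4 to 94.7). Summits of the 2 antibodies were 174 bp apart at the median of gene ends (165 to 184) and 144 bp apart inside genes (135 to 156). They lay within 100 bp of each other for 32.1% of members (30.2 to 34.0) and 38.4% inside genes (36.2 to 40.7). Only 2 of the 2460 H3K4me3 peaks concerned held 2 members.

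H3K4me3 peaks that carried p300 were wider and held more reads, while their fold differed less. The partner of a member had a median width of 1310 bp (1284 to 1334), a fold of 7.12 (6.996 to 7.22) and 167 reads at its summit. Partners of p300 peaks inside genes had 929 bp (894 to 959), a fold of 6.15 (5.997 to 6.24) and 84 reads. Of 11673 H3K4me3 peaks at gene ends, 2527 overlapped p300 (21.6%, 20.9 to 22.4), and these had a median width of 1308 bp against 895 bp for the other 9146 (881 to 909). Their summits held 166 reads against 105, and their fold was 6.99 against 6.61. Split into 5 classes by width, the share with p300 went from 5.61% in the narrowest class (4.71 to 6.62) through 12.3%, 19.7% and 28.0% to 42.6% in the widest (40.6 to 44.6). Split by fold it was 15.1%, 21.0%, 25.1%, 25.4% and 21.7%, with the highest class below the third and the fourth. A wider peak also offers more bases to overlap, and the part of this in the trend was not tested.

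**Figure D2:**
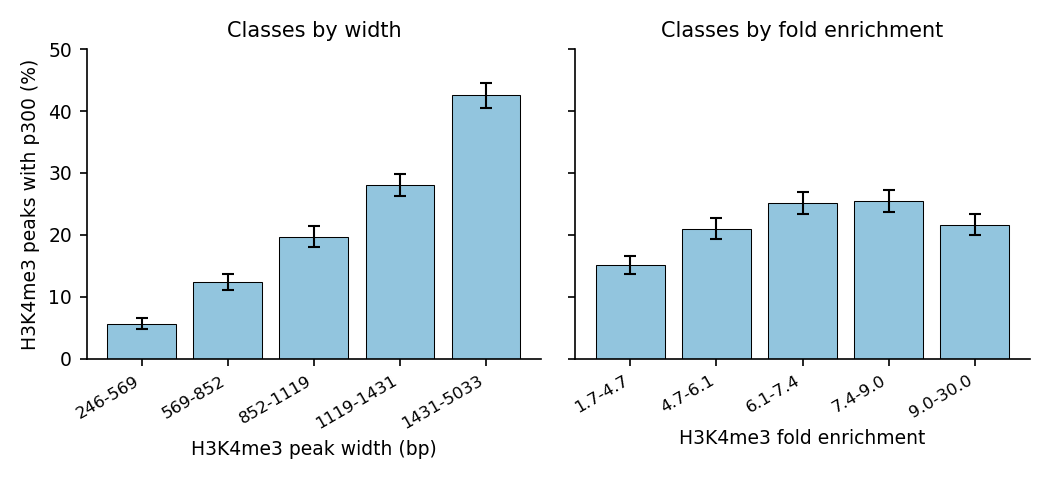
Share of H3K4me3 peaks at gene ends that overlap a p300 peak (percent, y axis) in 5 equal classes by H3K4me3 width in bp (left) and by H3K4me3 fold enrichment (right), with exact 95% intervals as error bars. The share goes from 5.61% to 42.6% with width, and lies between 15.1% and 25.4% across fold.

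Enrichment of the members was moderate and close to that of p300 peaks elsewhere. The authors' fold, the summit over its background, had a median of 5.78 (5.70 to 5.84), quartiles of 4.93 and 6.79, and a range of 2.24 to 13.9. Peaks with H3K4me3 inside genes had a median of 5.64 (5.58 to 5.72), and the 59 at gene ends without H3K4me3 had 4.83 (4.48 to 5.33). The −log10 q of members had a median of 14.9 and the width a median of 628 bp. A median of 37 reads lay under the summit, with quartiles of 28 and 53, over a background of 5.54 reads. Across members, p300 fold and H3K4me3 fold had a Spearman correlation of 0.424 (n = 2386), given as a description, since peaks at 1 place share their base composition and mappability.

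**Figure D3:**
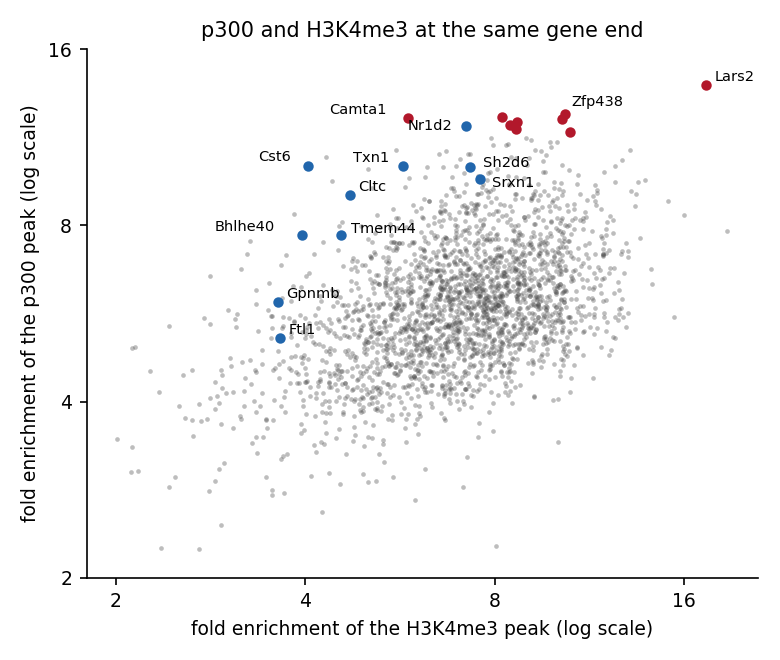
Fold enrichment of each p300 peak at a gene end (y axis, log scale) against that of the H3K4me3 peak it overlaps (x axis, log scale), 1 point per member, with the highest by p300 fold in red and by −log10 q in blue (Nr1d2 is in both). Lars2 stands at the top right with 13.9 and 17.4, while Gpnmb and Ftl1 had high −log10 q at moderate p300 folds of 5.92 and 5.14.

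The members of highest −log10 q included clock, redox and pigment genes. Nr1d2, the nuclear receptor REV-ERB beta of the clock, had a p300 peak at its start with a fold of 11.8, a −log10 q of 247 and 363 reads at the summit. Bhlhe40, another clock repressor, had 317 reads and a fold of 7.70 inside an H3K4me3 peak of 3454 bp. Txn1, which encodes thioredoxin, had 329 reads at fold 10.1, and Srxn1 had 269 reads at fold 9.61. Ftl1, the ferritin light chain, shared the peak with the most summit reads of any member that could be solved, 421 at fold 5.14, with the 3′ end of Bax. Gpnmb had 380 reads at fold 5.92, and Cltc, the clathrin heavy chain, had 272 at fold 9.02. The highest −log10 q of all members, 348, stood at the 3′ end of Sh2d6 with a fold of 10.0, followed at other ends by Cst6 with Catsper1 (237) and Tmem44 (207), where the summit lay 806, 955 and 1951 bp from the end. Those distances exceed the 500 bp within which 86.9% of the summits near a start lay.

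By fold the highest member stood at the 3′ end of Lars2, the mitochondrial leucyl-tRNA synthetase, with 13.9. Its p300 peak was 371 bp wide and its H3K4me3 peak 381 bp with a fold of 17.4, and the 2 peaks shared a border base, as did 58 members in all (2.43%). Others among the 10 highest were Zfp438 (12.4), Camta1 (12.2), Immt (12.2), Ptp4a1 (12.0), Nt5dc3 (11.9), Nr1d2 (11.8), Mcee (11.7) and Ppp2r5a (11.5). Summit reads of the 10 highest ran from 57 at Zfp438 to 363 at Nr1d2. The widest members were found at LOC108167694 (3047 bp), Irf2bp2 (2694 bp), Tmc6 with Tmc8 (2455 bp), Nr1d1 (2187 bp) and Brd2 (2164 bp), with folds of 3.97 to 5.14. Brd2 encodes a reader of acetylated histones and Nr1d1 the clock receptor REV-ERB alpha.

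A gene had at most 2 such peaks. One or more stood at an end of 2913 of 21887 protein-coding genes (13.3%), 52 of which had 2, and at an end of 2907 of the 11045 genes with H3K4me3 at an end (26.3%). H3K4me3 stood at an end of 50.5% of all genes. Counts of listed genes below are set beside 13.3% and 26.3%, and no list was tested against them.

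Other libraries of the series are titled as knockouts of Tdg and Trp53, and Ep300, Mdm2 and Cdkn1a were looked up with these genes. Mdm2, the ubiquitin ligase of p53, had a p300 peak at its start on chr10:117710154-117711393 with a fold of 5.61 and 68 reads. It overlapped a narrower H3K4me3 peak of 474 bp and fold 3.53. Trp53, which encodes p53, had one at its start on chr11:69579946-69580606 with a fold of 4.56 and 34 reads, in an H3K4me3 peak of 2817 bp. Tdg, Ep300 and Cdkn1a had none at an annotated end, although Tdg and Ep300 carried H3K4me3 at an end. Only the outer ends of a gene were looked at, so any start inside these genes was not examined. Of 34 p53 target genes 15 had such a peak (44.1%, 27.2 to 62.1), and 15 of 28 with H3K4me3 (53.6%). The highest were Plk2 (8.71), the stress sensor Sesn1 (8.01) and the repair nuclease Ercc5 (7.88). Gdf15 was counted through a peak at its 3′ end alone. Bax had 2 peaks, one of fold 3.92 at its start and the one shared with Ftl1 at its 3′ end. Of the genes for excision repair and DNA demethylation 7 of 24 had one (29.2%, 12.6 to 51.1), an interval that includes the 13.3% of all genes. Among the 22 with H3K4me3 the share was 31.8%, beside 26.3% of all such genes. The highest was Ogg1, the glycosylase for 8-oxoguanine, at fold 10.6 with 114 reads. The glycosylases Neil2 (5.96), Mbd4 (5.28) and Ung (5.19), and the later enzymes Xrcc1, Apex1 and Fen1, completed the 7.

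Stress response genes held high shares, and the unfolded protein and heat shock lists had the highest of the 28 lists among all their genes. For the unfolded protein and integrated stress responses, 14 of 21 genes had p300 with H3K4me3 at an end (66.7%, 43.0 to 85.4), 13 of them at a start. They cover the sensors Eif2ak3 (5.47) and Ern1, the latter with 83 reads, the factors Atf4 (4.46), Atf5 (5.81), Xbp1 (5.14), Ddit3 (5.61) and Creb3l2 (6.19), and outputs such as Hsp90b1, Herpud1, Asns, Trib3 and Chac1. Their median fold, 5.38, was below the 5.78 of all members, and when only peaks above the median fold of their own list were kept, 9.52% of the genes kept such a peak against 5.51% of all genes. Heat shock and chaperone genes had 14 of 22 (63.6%, 40.7 to 82.8), from 13 peaks because Hspd1 and Hspe1 share one. Hsph1 (9.42), the mitochondrial chaperone Hspa9 (8.47) and the co-chaperone Bag3 (6.54) were highest, and the regulator Hsf1 had 5.14. Above the median fold this list kept 27.3%. Of 20 NRF2 pathway genes 11 had such a peak (55.0%, 31.5 to 76.9), among them the factor Nfe2l2 itself (6.71), its inhibitor Keap1 (5.87) and, below the targets already named, Gsr (6.16) and Prdx1 (5.30). Sqstm1 and Hmox1 had low folds of 3.01 and 2.86 with 315 and 71 reads. For comparison, 13.3% of all genes and 26.3% of genes with H3K4me3 at an end had such a peak. Among listed genes with H3K4me3 the share was 70.0% for the unfolded protein, 73.7% for the heat shock and 64.7% for the NRF2 list.

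Several lists of RNA processing, growth and replication also lay above the 13.3% of all genes. Splicing factors had 15 of 24 (62.5%, 40.6 to 81.2), with Srsf2 at fold 10.1 and 235 reads, Snrnp70 at 8.46 and Hnrnpa2b1 at 8.45. The MYC network had 6 of 12 (50.0%, 21.1 to 78.9), where Mnt, a repressor that pairs with MAX, had 300 reads and Myc itself 55. Replication licensing genes had 8 of 20 (40.0%, 19.1 to 63.9) at a median fold of 7.15, led by Mcm4 (9.18), Pcna (9.14) and Orc6 (9.01). Cyclins and their kinases had 9 of 24 (37.5%, 18.8 to 59.4), led by Cdk4 (7.48) and Ccnt2 (6.16). Above the median fold of both lists 4.17% of them kept one, below the 5.51% of all genes. Aminoacyl-tRNA synthetases had 8 of 20 (40.0%, 19.1 to 63.9), led by Nars (7.33), Mars1 (6.93) and Dars (6.60). The proteasome had 10 of 26 (38.5%, 20.2 to 59.4), led by Psmd1 (7.43). Ribosome biogenesis had 8 of 23 (34.8%, 16.4 to 57.3), led by the nucleolar methyltransferase Fbl (7.42). Cholesterol synthesis had 6 of 21 (28.6%, 11.3 to 52.2), led by Idi1 (9.49) and Insig1 (7.50), and its interval includes 13.3%. Among genes with H3K4me3, 26.3% of which had such a peak, splicing factors had 62.5%, the MYC network 60.0% and licensing genes 44.4%. There the proteasome had 40.0%, cyclins and their kinases 39.1%, synthetases 36.8%, ribosome biogenesis 36.4% and cholesterol synthesis 33.3%. Replication-dependent histone genes had 13 of 21 (61.9%, 38.4 to 81.9) from 11 peaks, since neighbours in a cluster share them, and at a median fold of 4.08 none of them was above the median fold in both lists. Among genes with H3K4me3 at an end their share, 76.5%, was the highest of the 28 lists.

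Other lists lay near or below the 26.3% of genes with H3K4me3, counted among their own genes with H3K4me3. Respiratory chain genes had 4 of 28 (14.3%, 4.03 to 32.7), namely Ndufa4, Cycs, Ndufv1 and Sdhb, which is 14.8% of those with H3K4me3, although 27 of them carried H3K4me3 with a median width of 1383 bp against 1131 bp for all genes. Cytosolic ribosomal protein genes had 7 of 32 (21.9%, 9.28 to 40.0), which is 22.6% of those with H3K4me3. Of genes for histone acetyltransferases 3 of 16 had one (18.8%, or 3 of 15 with H3K4me3), namely Kat7 (9.71), Hat1 and Kat2a. Of genes for H3K4 methylation there were 4 of 19 (21.1%, or 23.5% of those with H3K4me3), namely Kmt2c, Kdm5a, Kmt2a and Kmt2b. MAPK cascade and feedback genes had 5 of 22 (22.7%, or 25.0% of those with H3K4me3) and the BCL2 family 2 of 14 (14.3%, or 2 of 10 with H3K4me3), Bnip3l and Bad. Interferon and sensing genes had 1 of 24, the adaptor Mavs (5.26% of those with H3K4me3). Of all genes 13.3% had such a peak, and all these lists but the last lay above that.

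Several pigment cell genes combined p300 with weak H3K4me3, and others did not. Of 25 genes 8 had such a peak (32.0%, 14.9 to 53.5), namely Gpr143 (8.96), Gpnmb (5.92), Slc45a2 (5.13), Dct (4.97), Mc1r (4.51), Pax3 (4.19), Met (3.75) and Sox10 (3.45). Of the pigment lineage markers Mitf, Sox10, Tyr, Tyrp1, Dct, Pmel and Mlana, only Sox10 and Dct are among these 8. Dct, the tautomerase of melanin synthesis, had 201 p300 reads in a p300 peak of 1147 bp that overlapped an H3K4me3 peak of 333 bp and fold 2.15. The melanocortin receptor Mc1r had 102 p300 reads with an H3K4me3 fold of 2.27, and Sox10, a neural crest factor, had 80 with an H3K4me3 fold of 2.01. In contrast, the H3K4me3 fold was 7.80 at Gpr143, 6.31 at Slc45a2 and 5.23 at Pax3, and its median over the 18 listed genes with H3K4me3 was 5.34, against 7.28 for all such genes. Above the median fold of both lists 4.00% of the pigment genes kept a p300 peak, below the 5.51% of all genes. None of the markers of epithelial (12), myeloid (12), lymphocyte (14), stromal (12) or hepatocyte (12) cells had such a peak, and 7 of these 62 genes carried H3K4me3 at an end. AP-1 and immediate early genes had 8 of 23 (34.8%, 16.4 to 57.3), among them Egr1 (6.55), Klf4 (6.48), Fosl2 (6.38) and Jun (4.24). The share of all genes was 13.3%. Among those with H3K4me3 at an end it was 44.4% for pigment genes and 40.0% for AP-1 and immediate early genes, beside 26.3% of all such genes.

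**Figure D4:**
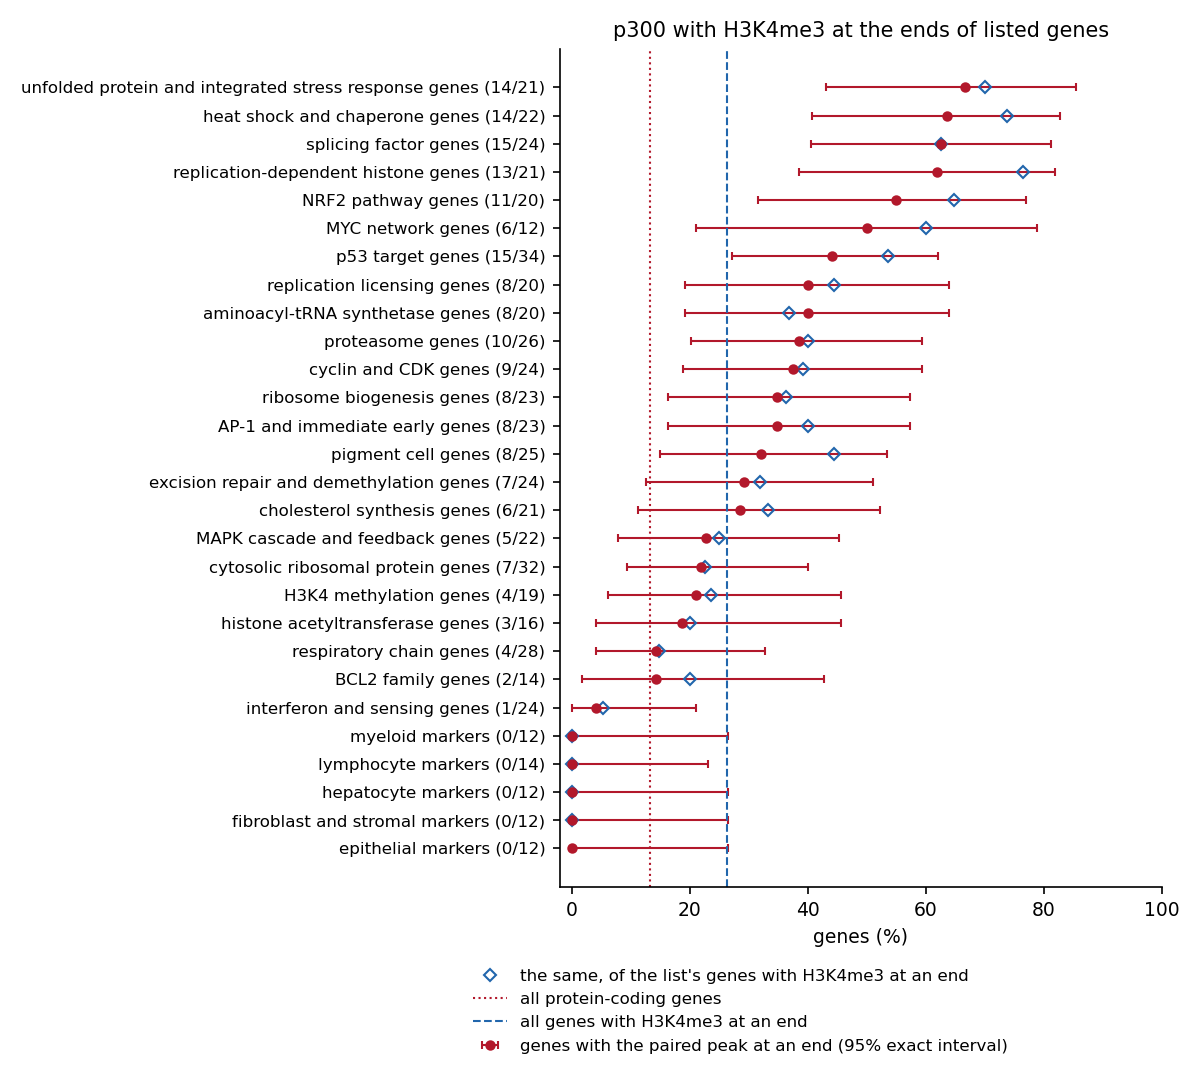
Share of the genes in each list with a p300 and H3K4me3 peak at an end (red circles with exact 95% intervals, percent on the x axis) and the same share among the genes of the list with H3K4me3 at an end (open blue diamonds), with counts beside the names. The dotted and dashed lines mark all genes, 13.3% and 26.3%, and stress response, chaperone, splicing and histone lists stand farthest to the right of them.

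Promoter windows with p300 were richer in CpG than other H3K4me3 promoters. Windows of 300 bp around the start were available for 17492 genes. A p300 and H3K4me3 peak overlapped 1905 of these windows, 6034 were counted with H3K4me3 and no p300, and 9415 with neither. The remaining windows fell in none of these groups. A peak within 1 kb of a start can miss the window, and 2300 genes had such a peak at a start. The other groups therefore include some genes with p300 and H3K4me3 near the start. A CpG-rich window, with over 50% GC and an observed-over-expected CpG ratio above 0.6, was present in 82.6% (80.8 to 84.3), 72.8% (71.6 to 73.9) and 20.1% (19.3 to 20.9) of these, and in 45.5% of all windows. The median number of CpG sites was 23, 21 and 4. Sequence was not used to choose the members, but H3K4me3 was, so promoters with H3K4me3 and no p300 are the closer comparison.

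Of the 14 motifs, the E-box had the highest ratio between its share in H3K4me3 promoters with and without p300. It occurred in 14.5% with p300 (12.9 to 16.1), 9.86% without (9.12 to 10.6) and 7.91% of all windows. Among CpG-rich windows alone the shares were 15.8% (14.1 to 17.7) and 10.6%. In windows that were not CpG-rich they were 8.13% (5.43 to 11.6) and 7.80% (6.54 to 9.20), and these intervals overlap. There the SP/KLF shares, 47.3% (41.8 to 52.8) and 45.5% (43.1 to 47.9), overlapped as well. The CCAAT shares there were 45.2% with p300 and 45.2% without. The SP/KLF letters stood in 74.1% (72.1 to 76.1) and 66.7% (65.4 to 67.8), against 46.3% of all windows, and the CCAAT box in 45.5% (43.3 to 47.8) and 40.3% (39.0 to 41.5), against 39.2%. Letters of the SOX and TEAD motifs were less frequent with p300, at 10.4% (9.11 to 11.9) and 10.2% (8.86 to 11.6), than without, at 12.9% (12.1 to 13.8) and 11.6% (10.8 to 12.4), though the TEAD intervals overlap. The SOX intervals overlap too within CpG-rich windows, at 9.54% (8.13 to 11.1) and 11.0% (10.1 to 11.9), and within the others, at 14.8% (11.1 to 19.04) and 18.1% (16.3 to 20.04). For ETS (20.3% and 22.4%), CRE (4.15% and 3.58%), AP-1 (4.25% and 4.04%), NRF1 (2.26% and 2.62%), M-box (2.15% and 1.64%), YY1 (1.94% and 1.82%), the TATA box (5.72% and 6.05%) and BANP (1.36% and 1.33%) the intervals of the 2 groups also overlapped. All windows held these at 11.9%, 2.33%, 7.03%, 1.33%, 3.06%, 0.972%, 13.3% and 0.726%, TEAD at 13.5% and SOX at 16.8%. The full p53 site, searched with no spacer and no mismatch, was in none of the 17492 windows. Sites with a spacer or a mismatch were not searched for, so this does not show that p53 sites are absent. For each motif found, the interval of the median p300 fold with the motif overlapped the interval without it. The median fold was 5.81 with the E-box (5.57 to 6.09) and 5.96 without it (5.87 to 6.03). Promoters with p300 and H3K4me3 were also split into 3 classes by p300 fold. The E-box share was 17.0% in the lowest class (14.2 to 20.2), 13.7% in the middle (11.1 to 16.6) and 12.8% in the highest (10.3 to 15.6). The share was thus highest where p300 fold was lowest, though these intervals overlap.

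**Figure D5:**
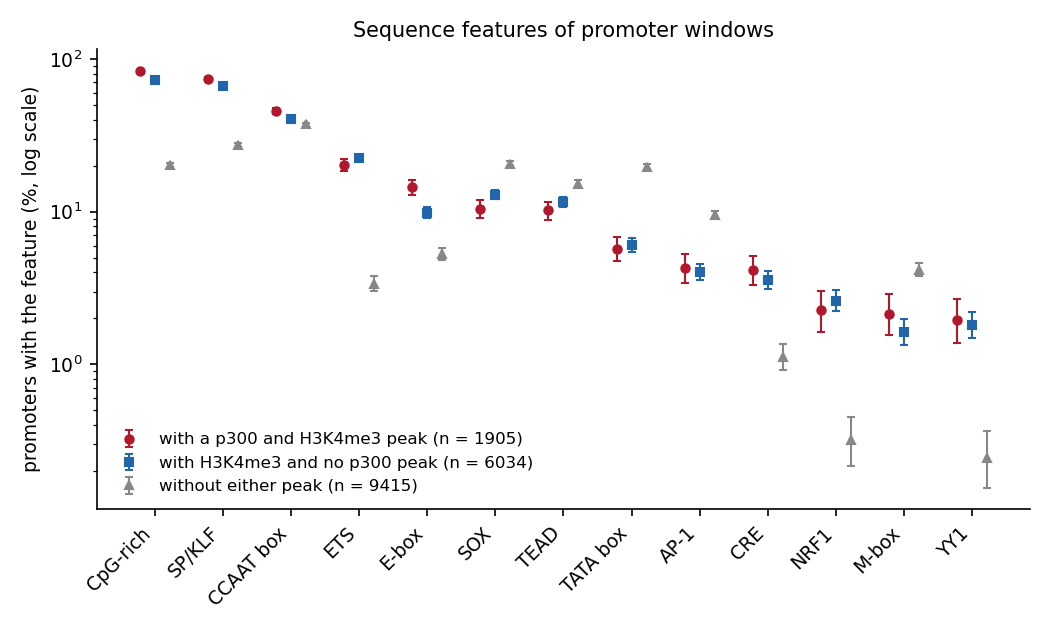
Share of 300 bp promoter windows with a CpG-rich composition or a motif (percent on a log scale, y axis; feature on the x axis) for promoters with a p300 and H3K4me3 peak (red), with H3K4me3 and no p300 peak (blue) and with neither (grey), with exact 95% intervals. Red and blue are separate at the CpG-rich share (82.6% and 72.8%) and the E-box (14.5% and 9.86%), and overlap at AP-1 (4.25% and 4.04%).

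Genes on the X chromosome had few such peaks. On X 33 of 966 genes had one (3.42%), or 10.2% of its 325 genes with H3K4me3 at an end, and on chromosome 18 the latter share was 15.1%. Among autosomes the highest were 36.0% on chromosome 6 and 32.8% on chromosome 7, and Y had 1 gene with H3K4me3 at an end, which had a member. The copy number of chromosomes in these cells was not tested. Members were more solitary than other p300 peaks, with another p300 summit within 10 kb for 12.7% (11.4 to 14.1) against 19.3% (17.5 to 21.2) of those inside genes. An annotated end of a long noncoding RNA lay within 1 kb of 13.4% (12.1 to 14.8), against 5.87% (4.83 to 7.04) inside genes. By the rule only members lie within 1 kb of a protein-coding gene end, and the part of this in the contrast was not tested.

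Members at the limits of the rule had moderate folds, and those of smallest overlap had few reads. The farthest inside the window were those of Bace2, 999 bp from the gene with a fold of 5.87, and Gm46965, 998 bp with 4.92. Just outside were peaks near Zfp335, 1005 bp with 3.91, and Mcam, 1011 bp with 5.12. The smallest overlaps with H3K4me3 were 1 bp at Sec63 (fold 5.43) and 9 bp at Celf1 (5.16). Both peaks were weak, with 18 and 19 reads at the summit and a −log10 q of 7.61 and 7.47. The lower quartiles of members were 28 reads and 10.7. Peaks at the ends of Yy1 (4.33) and Poldip3 (4.60) missed an H3K4me3 peak by 31 and 37 bp and were not counted.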

How the data were processed

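CUT&Tag libraries of wild-type B16 cells for p300 and H3K4me3 (1 each, grouped by title) were used. Per the labels' protocols, 1 µg of antibody, 18 PCR cycles and paired reads of 150 bp were used. The submitters' processing notes name mm10, with Bowtie2 2.2.5, Picard 2.22.4, deepTools and Trim Galore. The peak calling program and its control were not given in the sources used here. One list of peaks per library was deposited by the authors. Each deposited row holds a position, a summit (an offset of whole bases), a score, a fold enrichment (a ratio) and −log10 p and q values. The deposited score is 10 times −log10 q with the fraction dropped. These values were used within a list only.

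Reads under a summit and their background were solved from the fold and a Poisson tail, with whole reads within 0.002 for 99.7% of p300 peaks and 99.9% of H3K4me3 peaks. Library totals are unknown. Summits of the p300 list held 14 to 1455 reads. Where no peak is listed, none was detectable at this depth.

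Gene ends came from RefSeq GRCm38.p6 (21887 protein-coding genes). Strand and the windows from 250 bp before to 50 bp after the start were given for 17492, and the start was the table's own. Gene lists held 574 symbols in 28 lists, of which 573 matched. The members, lists and tests were chosen with earlier results of these data known. Genes were named by rank (10 each by −log10 q, fold and width), by list and by the rule's limits. By list, up to 3 were named, or all where 3 or fewer had a peak. Further list members were given as counted examples chosen after their values were seen. Tdg, Trp53 and Ep300 were named because the series concerns them, and Mdm2 and Cdkn1a were chosen beside them. Of the promoters printed, those of list genes were picked after their motifs were seen. One member that the rank by fold names is not reported here. Alternatives were other overlaps, windows and thresholds, and autosomes alone. Python 3.11.15 with pandas 2.3.3, numpy 2.4.6 and scipy 1.17.1 was used.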

Additional observations from a re-analysis of the deposited data

Results flagged for a closer look

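The p300 list also held 17 peaks outside chromosomes 1 to 19, X and Y, 3 of them on the mitochondrial chromosome and the rest on scaffolds. They enter no comparison above. Their fold went up to 8.48 and their −log10 q up to 1165, beyond the 348 of the highest member. The H3K4me3 list held 24 such peaks, with a fold of up to 14.1. There was no control library to set beside them.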

How the results depend on the processing

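Of the alternatives for the main values, 34 stayed within the interval of the value and 22 did not. The share of p300 peaks counted was 35.2% with 50% of the peak overlapping H3K4me3, 35.3% with the summit inside it, 34.0% within 500 bp of a gene end, 40.03% within 2 kb and 29.5% with only peaks above the median fold of each list, where the count was 962. The share of genes was 12.8% under each of the first 2, 12.2% within 500 bp, 14.7% within 2 kb, 10.6% at a −log10 q of at least 10, 5.51% above the median fold and 13.9% on autosomes. The median fold was 6.13 at that −log10 q and 6.84 above the median fold, both by construction higher. The share of summits inside H3K4me3 was 98.4% at 50% overlap, 100% by the definition that asks for it and 98.2% above the median fold. The share nearest a start was 95.6% within 500 bp, 92.1% within 2 kb and 98.0% above the median fold, where the H3K4me3 width was 1281 bp. With the p300 summit within 250 bp of the start, the E-box share was 16.2% and that of TEAD 11.7%, and the other 12 motifs stayed within their intervals. For gene lists, alternatives added after seeing the data left 70 shares within their intervals and moved 20, all above the median fold. There the shares of the pigment (4.00%), cyclin (4.17%), MAPK (4.55%), ribosomal protein (3.12%), respiratory chain (3.57%) and histone (0%) lists went from above to below that of all genes (5.51%), as did the acetyltransferase list at a −log10 q of at least 10 (6.25%, with 10.6% of all genes). The cause was not tested. No paired analysis was possible because each antibody had 1 library. Depth limits which weak peaks were called.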

Other observations

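Lysosome genes and clock genes were looked at after members of both had been seen among the highest peaks, so their shares are descriptions. Of 34 lysosome genes 24 had p300 with H3K4me3 at an end (70.6%, 52.5 to 84.9). All 34 carried H3K4me3 at an end, so the closer background is the 26.3% of genes with H3K4me3 rather than the 13.3% of all genes. The 24 lysosome genes were not tested against either. They include the hydrolases Hexa, Ctsb, Ctsd, Gla and Naglu, the proton pump subunits Atp6v1a and Atp6v0d1, the cholesterol transporters Npc1 and Npc2, the nutrient sensing partners Flcn, Fnip1, Fnip2, Rragc and Rragd, and Tfeb, the transcription factor of lysosome genes (5.77). Fnip2 was highest at fold 8.99 with 113 reads, and the median fold of 5.16 was below the 5.78 of all members. Among peaks above the median fold of both lists 11.8% kept such a peak, against 5.51% of all genes. Of 24 clock genes 11 had one (45.8%, 25.6 to 67.2), including Nr1d2, Cry1 (9.53), Cry2 (6.50), Nr1d1 (5.14), Dbp (3.77) and Per1 (3.73). Among clock genes with H3K4me3 at an end the share was 57.9%, beside 26.3% of all such genes.

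The longer motif TCACGTG, searched on both strands after the E-box share was seen and held within it, stood in 10.2% of promoters with p300 and H3K4me3 (8.91 to 11.7), 5.65% with H3K4me3 alone (5.08 to 6.26) and 4.43% of all windows. It was in the windows of 9 of 18 lysosome genes with p300 there, namely Atp6v0d1, Atp6v0e, Atp6v1a, Ctsd, Fnip1, Gla, Naglu, Rragc and Sgsh, and of 13 of 28 with or without it. The core of the antioxidant response element, TGACNNNGC, stood in 19.8% with p300 (18.0 to 21.7), 13.5% with H3K4me3 alone (12.6 to 14.4) and 13.1% of all windows, and in 3 of 8 windows of NRF2 pathway genes with p300, Nfe2l2, Prdx1 and Srxn1, but in 8 of 17 with or without it. Its letters overlap those of AP-1 and CRE sites in part.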
